A study of Mus musculus with 2 samples.

Results

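Mir128-1 and Mir128-2 are the 2 mouse genes for miR-128, a microRNA (miRNA) enriched in neurons. They are 2 of the 2202 miRNA genes counted in left cerebral cortex tissue from male mice of strain B6CASTF1/J, 2 months old, and were found as the rows whose Ensembl identifiers carry these names in GENCODE M21. Such animals are F1 crosses between the inbred strains C57BL/6J and CAST/EiJ. There was 1 group of 2 libraries made from RNA under 30 bases long, one labelled male 3 (library 1) and one male 4 (library 2), with no treatment, mutation or other condition in the labels. The labels call them biological replicates 1 and 2. The donor identifier is the same in both, and only the animal and replicate numbers set the samples apart. Whether the libraries come from separate animals cannot be settled from the labels. A biological and a technical difference between them therefore cannot be told apart.

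A miRNA gene is transcribed as part of a longer RNA, from which a hairpin is cut, and the hairpin is cut again to release a short duplex. One strand of the duplex, from the 5p or the 3p arm of the hairpin, is loaded into an Argonaute protein and pairs with messenger RNAs mainly through its seed, bases 2 to 8. The main product of both Mir128 genes is miR-128-3p, which is abundant in brain neurons and is known to lower neuronal excitability. In mice, loss of miR-128 from forebrain neurons is known to cause hyperactivity and fatal seizures, and deletion of Mir128-2 is known to remove most of the miR-128 of the forebrain.

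The mature sequences show what the loci share and how far they differ, with the seed in capitals and all sequences taken from RefSeq (GRCm38.p6, the build that mm10 names). Both genes matched an entry there. The 3p arm is letter for letter the same at both loci, and the 5p arms differ, so each has its own line.
miR-128-3p (both genes): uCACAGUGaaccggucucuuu
miR-128-1-5p (Mir128-1): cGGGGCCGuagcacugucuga
miR-128-2-5p (Mir128-2): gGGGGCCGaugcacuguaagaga
miR-27b-3p (Mir27b, shown for its overlapping seed): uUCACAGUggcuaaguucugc

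The 5p arms have the same seed although they differ at 5 of the first 21 positions, and the longest run of identical letters between them is 7 bases. Among 1674 different mature mouse sequences in the RefSeq table, no gene other than Mir128-1 and Mir128-2 had the seed of miR-128-3p or that of the 5p arms. The seed letters of miR-128-3p also occur at bases 3 to 9 of miR-27a-3p and miR-27b-3p, 1 base further in than their place in miR-128-3p, so that the Mir27 seeds overlap it.

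Each Mir128 gene lies inside an intron of a protein-coding gene on the same strand (mm10 coordinates, GENCODE M21). Mir128-1 (ENSMUSG00000065520.2) spans 70 bases at chr1:128202361-128202430 on the plus strand, within R3hdm1 (ENSMUSG00000056211.13, chr1:128103301-128237736), which encodes a protein with an R3H nucleic acid-binding domain. Mir128-2 (ENSMUSG00000065441.2) spans 76 bases at chr9:112118636-112118711 on the minus strand, within Arpp21 (ENSMUSG00000032503.18, chr9:112065091-112235938), which encodes a neuronal RNA-binding phosphoprotein of the same R3H family. Mir128-1 lay 5263 and 8774 bases from the nearest exons of the R3hdm1 transcripts that span it, and Mir128-2 lay 1868 and 471 bases from those of Arpp21. No other annotated miRNA gene lay within 10 kb of either, the nearest being 3296209 bases from Mir128-1 and 370905 bases from Mir128-2. Neither hairpin overlapped a gene on the opposite strand, and neither had an antisense read in either library. Host messenger RNA was not measured in these libraries.

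The whole hairpins show which reads can be placed at one gene, with the longest stretch common to both in capitals.
Mir128-1: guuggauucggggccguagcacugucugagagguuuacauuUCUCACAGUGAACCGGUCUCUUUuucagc
Mir128-2: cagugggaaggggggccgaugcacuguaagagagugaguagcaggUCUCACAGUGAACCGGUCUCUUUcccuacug

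Aligned end to end, the hairpins were identical at 55 of 77 columns (71.4%). The common stretch is 23 bases long and holds the whole of miR-128-3p with 2 further bases before it and 0 after it. The next base is U at Mir128-1 and C at Mir128-2. A read that starts at the first base of miR-128-3p therefore matches both loci at lengths of 18 to 21 bases, and matches a single locus at 22 bases or more. Of the 49 windows of 22 bases in the Mir128-1 hairpin, 47 were absent from Mir128-2, and of the 55 windows in the Mir128-2 hairpin, 53 were absent from Mir128-1. No window of either was found on either strand of the other annotated miRNA hairpins or of the 141767 GENCODE M21 transcripts. Intergenic and intronic sequence was not searched.

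**Figure D1:**
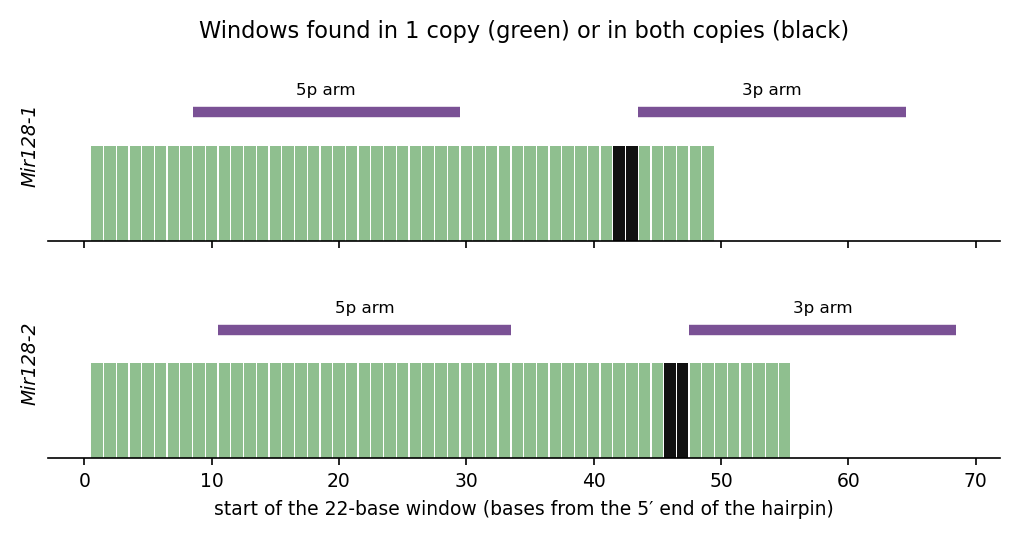
Windows of 22 bases along the hairpins of Mir128-1 (top) and Mir128-2 (bottom), plotted at the first base of the window in bases from the 5′ end, with bars above for the mature 5p and 3p arms. The 2 black windows in each hairpin occur in both copies. They start just before the 3p arm and span nearly all or all of it. The 47 and 53 green windows occur in one copy.

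The counts below hold only reads placed at a single gene, as the layout of the deposited tables tallies a read that maps to several places apart from every gene. That tally held 4743316 of the 11372894 reads of library 1 (41.7%) and 5338530 of the 12980686 reads of library 2 (41.1%). For each read placed at a Mir128 gene, 74.0 reads of library 1 and 147 reads of library 2 were in the tally. How many of these are miR-128 was not analysed here, so the values describe the placeable reads of each locus and not the amount of miR-128. Reads in miRNA genes on the sense strand numbered 3827158 in library 1 and 4553291 in library 2. A gene counted as detected if each library had at least 10 of its reads, which 406 of 2202 genes reached, both Mir128 genes included.

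Mir128-1 was among the most abundant miRNA genes and exceeded Mir128-2 in both libraries. It had 53126 reads in library 1 and 29106 reads in library 2, or 13881 and 6392 counts per 1000000 sense-strand miRNA reads (CPM). Mir128-2 had 10941 reads in library 1 and 7097 reads in library 2, or 2859 and 1559 CPM. Each gene was higher in library 1, and the lower library of Mir128-1 still lay above the higher library of Mir128-2. The mean was 10137 ± 5296 CPM for Mir128-1 and 2209 ± 919 CPM for Mir128-2 (SD, n = 2). As a share of sense-strand miRNA reads, Mir128-1 held 1.39% of library 1 (95% Wilson interval 1.38 to 1.40%) and 0.639% of library 2 (0.632 to 0.647%). Mir128-2 held 0.286% of library 1 (0.281 to 0.291%) and 0.156% of library 2 (0.152 to 0.160%). PCR copies cannot be told from separate molecules here, so these and all later intervals cover counting error only. Together the genes held 1.67% of library 1 and 0.795% of library 2, a mean of 1.23% ± 0.621 (SD, n = 2).

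**Figure D2:**
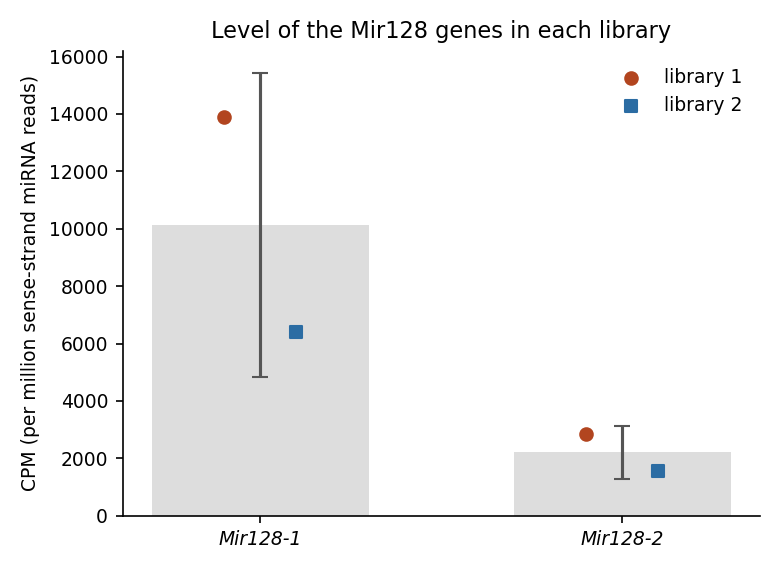
Level of Mir128-1 and Mir128-2 in CPM, with circles for library 1, squares for library 2, bars for the mean and error bars for the SD (n = 2). Mir128-1 stood at 13881 and 6392 CPM and Mir128-2 at 2859 and 1559 CPM in libraries 1 and 2.

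Among the 406 detected genes, Mir128-1 was number 20 by mean CPM, number 12 in library 1 and number 33 in library 2. Mir128-2 was number 60 by mean, number 53 in library 1 and number 73 in library 2. The genes next to Mir128-1 in the order were Mir29a (10625 ± 2718 CPM) and Mir99a (10352 ± 1705 CPM) above it, and Mir126a (9962 ± 2634 CPM) and Mir382 (9287 ± 671 CPM) below it (SD, n = 2). Those next to Mir128-2 were Mir30e (2653 ± 49.1 CPM) and Mir671 (2307 ± 271 CPM) above it, and Mir337 (2181 ± 324 CPM) and Mir338 (2161 ± 815 CPM) below it. The libraries' values of all 8 neighbours overlapped those of the Mir128 gene beside them, so the ranks are not separated by more than the spread.

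Mir128-1 held about 4 of every 5 reads placed at the pair. For a 22-base read from the first base of miR-128-3p, placement rests on its last base, U or C. Read lengths, arms and ends were not examined, so this split of placed reads need not be that of the genes' output. In library 1 it had 4.86 times the reads of Mir128-2 (95% exact interval 4.76 to 4.96), and in library 2 it had 4.10 times (4.00 to 4.21), a mean ratio of 4.48 ± 0.534 (SD, n = 2). Per base of hairpin the ratios were 5.27 in library 1 and 4.45 in library 2, since the Mir128-2 hairpin is the longer one. The ratios without this division are the ones used, on the assumption that both hairpins give reads of the same size class. The share of Mir128-1 in the reads of both genes was 82.9% in library 1 (82.6 to 83.2%) and 80.4% in library 2 (80.0 to 80.8%). This difference of 2.53 percentage points exceeded counting error by Fisher's exact test (two-sided, odds ratio 1.18, 95% interval 1.15 to 1.22, Benjamini-Hochberg adjusted p = 2.8e-22). Across 22 families of loci with an identical mature sequence in the RefSeq table, 14 (63.6%) differed by that test, and the split moved by more percentage points in 11 of the families than in the Mir128 pair. Only loci whose coordinates matched GENCODE M21 entered these families. The set is partial, as the Mir125b and Mir124a genes are not in it.

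Set against the 20 families with 2 copies, the division of reads in the Mir128 pair lay near the middle of the range. Its leading copy held 81.7% ± 1.79 of the reads (SD, n = 2), number 8 of 20, and the median family stood at 80.3%. At the upper end Mir194-2 and Mir365-1 held 100% of the reads of their families, from 104 and 54 reads and from 13 and 17 reads in libraries 1 and 2. Mir219a-2, of the oligodendrocyte miRNA miR-219, followed at 99.7% in library 1 and 99.6% in library 2. At the lower end Mir24-2 held 48.8% and 57.2%, Mir7-2 57.7% and 63.5%, and Mir3070b 69.8% and 51.8%. The Mir128 pair had the highest summed level of the 22 families, with 45.1% of all their placed reads in library 1 and 25.6% in library 2. Mir128-1 was the highest of their 46 loci and Mir128-2 the fifth. The common stretch of 23 bases was short for such pairs, where it ranged from 22 to 43 bases with a median of 24.5, and 13 of the 20 pairs shared a longer one.

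**Figure D3:**
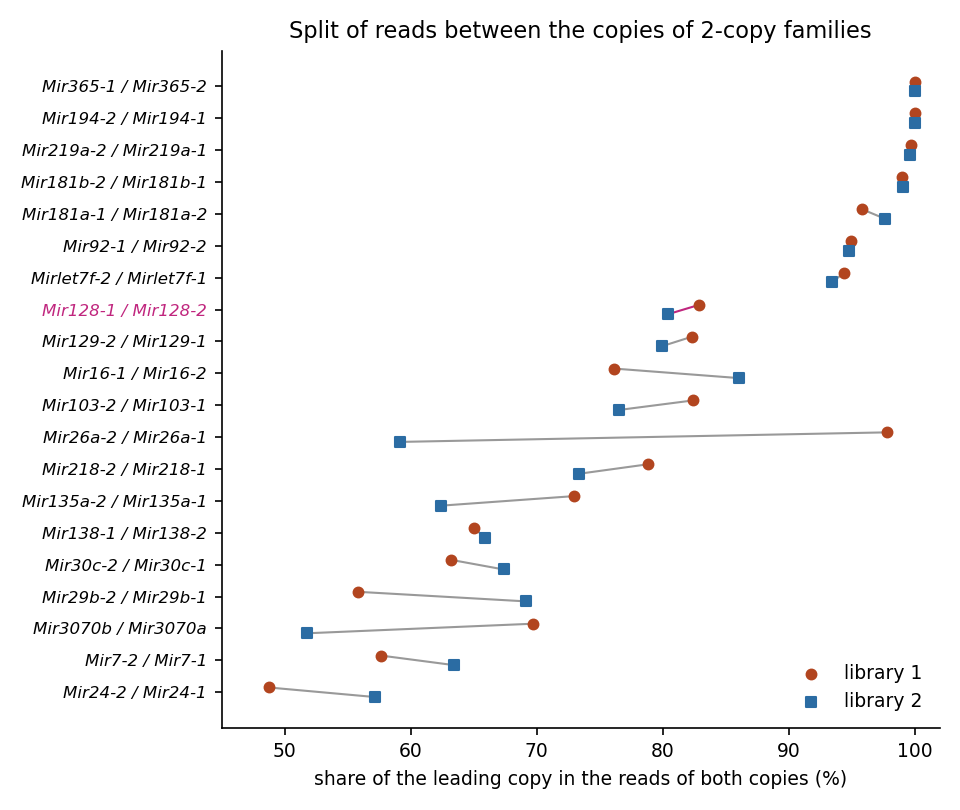
Share of the leading copy in the reads placed at both copies, in percent, for the 20 families with 2 copies, with circles for library 1 above squares for library 2 and families ordered by the mean share. The Mir128 pair (coloured label) stood at 82.9% in library 1 and 80.4% in library 2, near the median of 80.3%.

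Both Mir128 genes were higher in library 1 by more than counting error. Mir128-1 was 2.17-fold higher in library 1 (95% exact interval 2.14 to 2.20, log2 ratio 1.12) and Mir128-2 was 1.83-fold higher (1.78 to 1.89, log2 ratio 0.88). By the two-sided exact binomial test the adjusted p of each was below the smallest number that can be represented. That test compares the reads of these libraries, not conditions, and called 246 of 508 genes tested (48.4%), of which 128 (25.2% of those tested) were higher in library 1. Among 92 tested genes with a mean of at least 1000 CPM it called 85 (92.4%), so the call itself says little of genes as abundant as these. EdgeR's exact test was also run, with a spread between the libraries, a coefficient of variation of 33.3%, that was estimated from these same libraries. The differences tested are thus part of that spread, and a p that misses the threshold shows little. Its unadjusted p was 0.104 for Mir128-1 and 0.199 for Mir128-2, and its adjusted p was 1 for both, while 4 of 508 genes (0.787%) passed and 25 had an unadjusted p under 0.05.

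The size of the difference places Mir128-1 near the edge of the abundant genes. The typical detected gene differed by 1.28-fold in either direction. Of the 406 detected genes, 20 had a higher ratio of library 1 over library 2 than Mir128-1, and 39 had a higher one than Mir128-2. Counted in either direction, 30 differed by a larger fold than Mir128-1 and 59 by a larger fold than Mir128-2. Of the 92 genes with a mean of at least 1000 CPM, 4 had a higher ratio than Mir128-1, and 5 differed by a larger fold in either direction, the fifth being Mir99b with a log2 ratio of -1.64. The 4 ran from Mir22 at 3.15-fold through Mir140 and Mir487b to Mir21a at 4.43-fold, and all 5 are named after their values were seen.

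**Figure D4:**
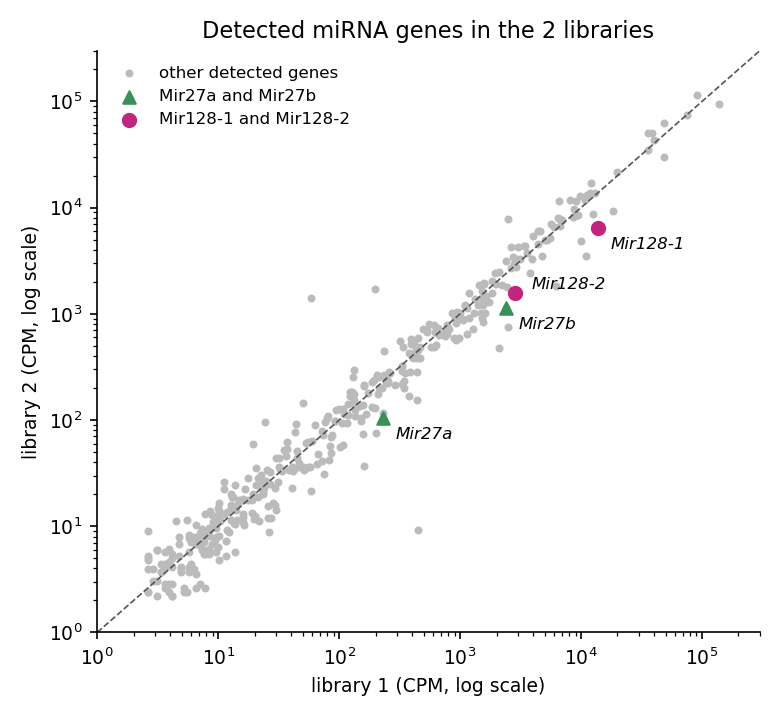
CPM of each detected miRNA gene in library 1 (x axis) and library 2 (y axis), both on log scales, with the dashed line marking equal values. Mir128-1 and Mir128-2 lie below the line, at 2.17 and 1.83 times their library 2 level in library 1, and Mir27a and Mir27b lie there too.

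The genes whose ratio between the libraries was nearest to that of Mir128-1 were sought at a mean of 1000 CPM or more. The measure rests on 2 libraries and is a description. Mir27b was the nearest, with 2382 CPM in library 1 and 1136 CPM in library 2 (2.10-fold), followed by Mir674 (2.05-fold), Mir125a (1.98-fold), Mir455 (1.83-fold) and Mir128-2 itself (1.83-fold). For Mir128-2, among genes with a mean of at least 100 CPM, the nearest were Mir455 (1.83-fold), Mir187 (1.77-fold), Mir195a (1.76-fold), Mir338 (1.73-fold) and Mir665 (1.73-fold). Mir27a, the other gene whose seed overlaps that of miR-128-3p, had 231 CPM in library 1 and 104 CPM in library 2 (2.23-fold).

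The copies of other families were called in various combinations, beside 48.4% of all genes called and 25.2% called as higher in library 1. Among the 20 families with 2 copies, the Mir128 pair and the Mir24 pair were the 2 families in which both copies passed the binomial test as higher in library 1. In 4 families, the Mirlet7f, Mir138, Mir30c and Mir135a pairs, named after their values were seen, both copies passed as higher in library 2. In 9 families a single copy passed, in 1 the copies moved in opposite directions, in 2 neither passed, and in 2 a copy had too few reads to be tested. The Mir125b genes, named after their values were seen, lie outside this partial set of families. Mir125b-1 was called as higher in library 2 (log2 ratio -0.13) and Mir125b-2 as higher in library 1 (log2 ratio 0.57).

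Other neuron-enriched miRNA genes were divided in direction. The list held 18 genes, of which 16 had enough reads for the exact binomial test. It called 6 as higher in library 1 and 4 as higher in library 2, or 10 of 16, against 48.4% of all genes. Without the Mir128 genes, 4 of 14 tested genes were higher in library 1 and 4 in library 2, with a median log2 ratio of 0.02 beside -0.01 over all genes tested. The 16 genes other than the pair summed to 63205 CPM in library 1 and 46943 CPM in library 2, with Mir132 as the largest part in each, and the direction of the group as a whole was not tested. Mir132, induced by neuronal activity, had 48515 CPM in library 1 and 30152 CPM in library 2 (1.61-fold). Mir137, which acts in neuronal maturation and at synapses, had 5517 and 5176 CPM (1.07-fold). Mir138-1, a gene of the synaptic miR-138, was lower in library 1, at 4434 CPM against 6046 CPM in library 2 (log2 ratio -0.45). Mir153, a brain-enriched miRNA gene, had 134 CPM in library 1 and 295 CPM in library 2 (log2 ratio -1.14). No gene of the list passed edgeR's exact test.

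**Figure D5:**
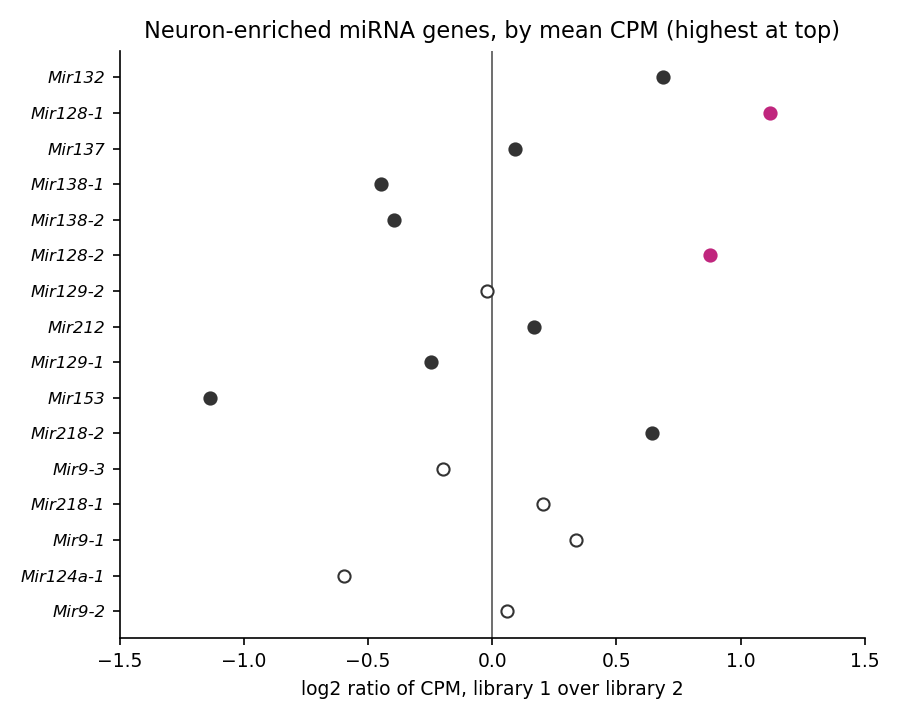
Log2 ratio of CPM in library 1 over library 2 for the 16 neuron-enriched genes tested, ordered by mean CPM with the highest at the top, filled where the exact binomial test passed and coloured for the Mir128 genes. The Mir128 genes lie at 1.12 and 0.88, and the others fall on both sides of 0.

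In level, Mir128-1 followed only Mir132 among the 18 neuron-enriched genes, and 4 of the 16 genes other than the pair lay above Mir128-2. The pair held 16740 of the 79945 CPM summed over the list in library 1, and 7951 of the 54894 CPM in library 2. The 3 Mir124a genes, whose miRNA is a hallmark of neurons, had between 1 and 18 reads each per library, and the 3 Mir9 genes between 7 and 276. The hairpins of the Mir124a genes share stretches of 31 or 32 bases with each other and those of the Mir9 genes 26 to 33 bases, longer than the 23 bases common to the Mir128 pair. Reads that lie wholly within such a stretch cannot be placed at one gene, and their number was not analysed. These counts are therefore no measure of those miRNAs. Whether stretch length bears on the counts was not tested. In all, 15 of the 18 genes on the list were detected in this tissue.

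Markers of other cells differed between the libraries in both directions by a test that covers counting error only, and in bulk tissue fewer cells of a type and less RNA per cell cannot be told apart. The oligodendrocyte list (Mir338, Mir219a-2, Mir219a-1) summed to 4981 CPM in library 1 and 3468 CPM in library 2, with 2 of 3 genes higher in library 1. The miR-29 family of astrocytes summed to 14342 CPM in library 1 and 9860 CPM in library 2, with 3 of 4 higher in library 1. The microglia and leukocyte list summed to 2164 CPM in library 1 and 1751 CPM in library 2, with 3 of 5 higher in library 1. The vessel list summed to 14355 CPM in library 1 and 18574 CPM in library 2, with 2 of 3 higher in library 2 and 1 in library 1. The red blood cell list summed to 134 CPM in library 1 and 1549 CPM in library 2, led by Mir451a at 58.3 and 1419 CPM, with 2 of 3 higher in library 2 and 1 in library 1. No gene of these lists was at 0 in both libraries. These counts are by the exact binomial test and stand beside 48.4% of all genes called, 25.2% as higher in library 1, and 92.4% called at a mean of 1000 CPM or more. With edgeR's exact test, Mir451a and Mir223 were the genes of these lists that passed. The part of cell composition in the Mir128 difference was not tested.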

How the data were processed

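Small RNA was sequenced from 2 libraries of 1 group. The authors used genome build mm10 and the GENCODE M21 annotation, per the labels and their deposited descriptions. They deposited whole-number read counts per miRNA gene, not normalized. The aligner is not given in the sources used here, nor is adapter trimming. The layout is that of STAR's gene counts, in which reads mapped to several places go to no gene. mm10 is the C57BL/6J sequence, so reads of the other parental strain that differ from it may be lost.

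The sense-strand column was used, and the 4 tally rows entered neither totals nor tests. Unmapped reads made up 19.6% and 18.9% of libraries 1 and 2, and unique reads outside miRNA genes 5.03% and 4.94%. For genes with 10 or more reads in total, the split of reads over the libraries was set against that of the sense-strand totals by an exact binomial test (two-sided, scipy 1.17.1), adjusted by Benjamini-Hochberg over all of them at 0.05. With 1 group there is no contrast for a quasi-likelihood test, so edgeR 4.0.16 (exact test at the common dispersion of an intercept-only fit, TMM) and DESeq2 1.42.0 size factors were alternatives, in R 4.3.3. Families are loci with an identical mature sequence in the RefSeq table, placed in GENCODE M21 by coordinates. Loci whose coordinates had no exact match were left out, so the families are a partial set. Of 40 such families, 22 had at least 10 reads in each library, and the leading copy is the one with more reads over both. All 2202 identifiers matched GENCODE M21.

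The rule for named genes covers Mir128-1 and Mir128-2, up to 6 members of each list, the 2 neighbours on each side in mean CPM, the 5 genes nearest in library ratio, genes with a shared or overlapping seed, and the 3 families with 2 copies at each end of the leading copy's share. Genes and families named after their values were seen are marked so. The members, lists and rules were chosen with earlier results of these data known.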

Additional observations from a re-analysis of the deposited data

Results flagged for a closer look

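Reads mapped to several places, which no gene of the tables receives, made up 41.7% of library 1 and 41.1% of library 2. They are listed here because these reads lie outside the counts used in every comparison. A read of miR-128-3p of 18 to 21 bases would belong to this tally, and its share there was not tested.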

How the results depend on the processing

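Both log2 ratios between the libraries kept their direction under every alternative run, and their call in all but one. With edgeR's exact test they were 1.13 for Mir128-1 and 0.89 for Mir128-2 and did not pass (adjusted p = 1 for both, against at most 8.91e-308 under every other alternative), and 4 genes passed in place of 246, since that test adds a spread estimated from these same libraries. Levels depend on the denominator. Per 1000000 reads of all kinds the means were 3457 CPM for Mir128-1 and 754 CPM for Mir128-2, and per 1000000 sense-strand reads plus reads mapped to several places they were 4571 and 997 CPM, because the denominators are larger. TMM, DESeq2 size factors and the column that ignores strand moved them by less than 1 SD. With single libraries left out in turn, Mir128-1 ranged from 6392 to 13881 CPM, Mir128-2 from 1559 to 2859 CPM and their ratio from 4.10 to 4.86. The shift in the split, and the count of 14 families, kept their call and stayed within 1.5 times with families of 2 copies only, a minimum of 50 reads and the column that ignores strand. No paired analysis was possible because there is 1 group. Counting intervals of the Mir128 counts are narrow beside the difference between the libraries. Reads that map to both copies are not in these counts under any alternative.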
